A study of Homo sapiens with 6 samples.

Results

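Gene expression after transfection of a miR-223-3p mimic was compared with a control transfection in NCI-H2023, an established human lung adenocarcinoma cell line grown as a monolayer. The comparison uses 4 of the 6 samples of the series, chosen by their titles: 2 given the mimic of miR-223-3p and 2 given the control, each pair lettered A and B. The other 2 samples received a miR-29a-3p mimic and enter only the estimate of spread and a side-by-side comparison. All cells were reverse transfected with a lipid reagent and 0.5 nM of synthetic RNA, and the medium was changed after 24 h. In the titles the control is a mimic control, while the protocol describes it as a negative control siRNA, and the labels state no sequence for it. The labels give no harvest time and do not say that A and B came from separate cultures. All p-values thus rest on the spread between these arrays, which could be technical spread, and all results concern 1 cell line.

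A microRNA mimic is a short double-stranded RNA whose guide strand is loaded into an Argonaute protein. The loaded strand pairs through its seed, a stretch of bases near its 5′ end, with sites in messenger RNAs, mostly in their 3′ untranslated regions, and lowers the stability and translation of those messages. Genes that carry no site can change as well, through the regulators among the direct targets. miR-223 is best known from the myeloid lineage, where it is abundant and restrains the production and activation of granulocytes, and it can pass to other cells in vesicles.

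The mature strands of both mimicked microRNAs, from RefSeq (GRCh38.p14), are shown because the seed decides which messages each can pair with. Capitals mark the seed, bases 2 to 8, and the strands are written 5′ to 3′.
miR-223-3p: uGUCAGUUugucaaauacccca
miR-29a-3p: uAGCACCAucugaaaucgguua
A message with a full seed match to miR-223-3p holds AACUGAC, and one with a match to miR-29a-3p holds UGGUGCU, so the seeds share no target heptamer. MIR223, the source gene, lies on the X chromosome, where the mature strand spans 66018937 to 66018958. Sites in the untranslated regions of the genes below were not searched, and none of these genes is called a direct target here.

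Values were compared for 17687 genes as log2 signals, a scale on which a difference of 1 is 2-fold. Array medians lay between 6.21 and 6.23. Over all genes, the difference between A and B had an SD of 0.337 in control and 0.357 among mimic samples, and that between mimic and control samples one of 0.358 to 0.386. Precision is limited by how few arrays there are. The epithelial markers KRT8 and KRT18 were bright, with control means of 17.34 and 16.52, as were the adenocarcinoma markers KRT7 at 16.36 and AGR2 at 14.8. The lung lineage factor NKX2-1 at 4.98, the protease NAPSA at 3.79 and the surfactant gene SFTPC at 3.92 lay in the dimmest range. In all 12 of 18 measured lung lineage markers had mean signals under 5, so the defining markers of peripheral lung were at or near the dimmest signals. Of 8 measured liver-type markers 4 were under 5, such as APOB at 2.62 and TTR at 3.69, while the fibrinogen genes FGA and FGB were at 16.68 and 16.06. Of 12 leukocyte markers 8 were under 5, and their summed signal ran from 10.63 to 10.72 in control and 10.57 to 10.66 with the mimic (log2). For fibroblast and endothelial markers 8 of 10 were under 5, with summed signals of 8.54 to 8.68 and 8.65 to 8.75.

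The comparison asks which transcripts differed between cells given miR-223-3p and control cells. The largest differences were lower signals of MANBAL and the tetraspanin TSPAN7, both 3.14-fold, and higher signals of UPK3B, a uroplakin, by 3.64-fold and of DSC2, a desmosomal cadherin, by 3.41-fold. Other called falls included the metal importer SLC39A14, the bicarbonate transporter SLC4A4, ceruloplasmin and cyclin D1. Other called rises included the secreted protein LCN2 and the adhesion molecules CEACAM1 and EPCAM.

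Genes were tested with limma over all 17687, at a Benjamini-Hochberg adjusted p of 0.05, with a variance prior that was either constant or followed the mean signal. With the constant prior 0 genes passed (0.0%), and the smallest adjusted p was 0.0855. An unadjusted p under 0.05 was found for 1343 genes (7.59%). With the prior that follows the signal, called the intensity trend below, 121 genes passed (0.684%), 89 lower (0.503%) and 32 higher (0.181%). A gene is described as called here only where it passed with the intensity trend, and each such call was absent with the constant prior. The intensity trend was chosen with earlier results of these data known. All 121 had both mimic samples on one side of both control samples. Over all genes 18.2% had both mimic samples below both controls and 18.7% had both above. Of the 121 called genes, 27 were at least 2-fold lower and 13 at least 2-fold higher. Leaving out control sample A or B gave 42 and 49 called genes, and leaving out mimic sample A or B gave 57 and 55. Of the genes called then, 42, 46, 50 and 49 were among the 121.

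**Figure D1:**
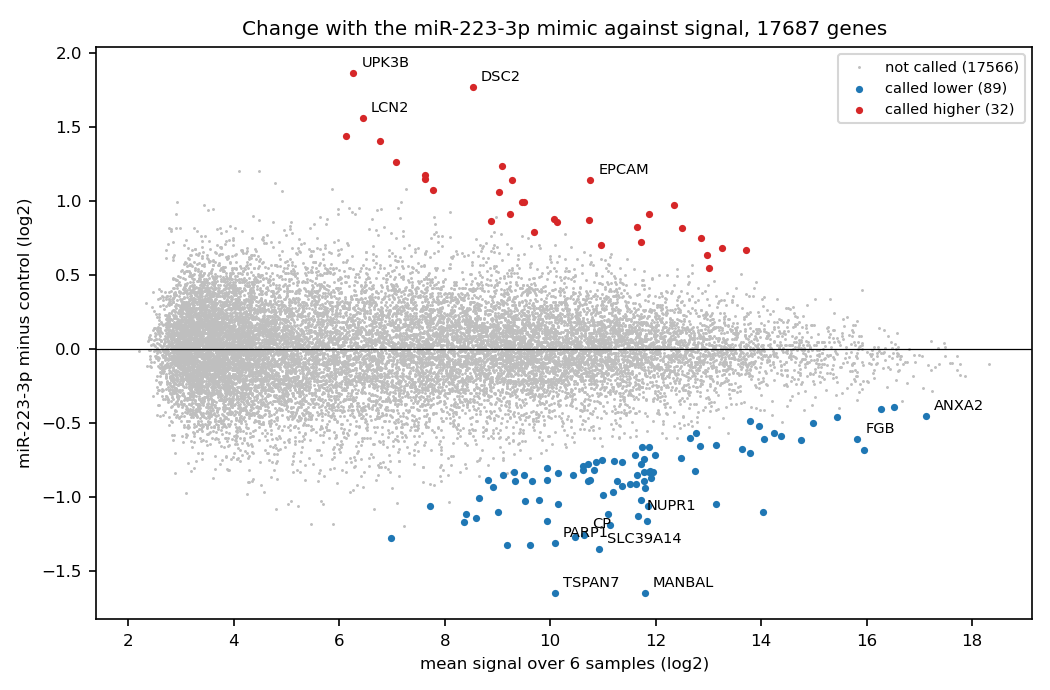
Log2 difference between the miR-223-3p and control means (vertical) against the mean log2 signal over 6 samples (horizontal), 1 point per gene; blue and red points are the 89 lower and 32 higher genes called with the intensity trend, and the rest are grey. The called lower genes reach up to the brightest signals, such as ANXA2, while no gene with a mean signal under 5 was called.

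By the 1.5-fold count below, lower genes outnumbered higher ones in each range of signal from 5 upward. Among called genes, lower ones were the more numerous only from 8 upward. Counted without a test, 413 genes (2.34%) were at least 1.5-fold lower with groups that did not overlap, and 314 (1.78%) were higher. At 2-fold the counts were 39 (0.221%) and 20 (0.113%). Among the 6501 genes with mean signals under 5 the counts were nearly equal, 116 and 119. They were 150 and 112 in the 4361 genes with signals of 5 to 8, 98 and 70 in the 4126 genes at 8 to 11, and 49 and 13 in the 2699 genes at 11 or more. Of the called genes 2 were lower and 8 higher at signals of 5 to 8, 36 and 14 at 8 to 11, and 51 and 10 at 11 or more. Over all genes the median change was 0.0, and 49.3% lay below control. The median spread within groups was 0.238 at signals under 5 and 0.122 at 11 or more, so that smaller differences could be resolved in bright genes. In bulk samples, less of a transcript per cell and fewer cells with it cannot be told apart.

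**Figure D2:**
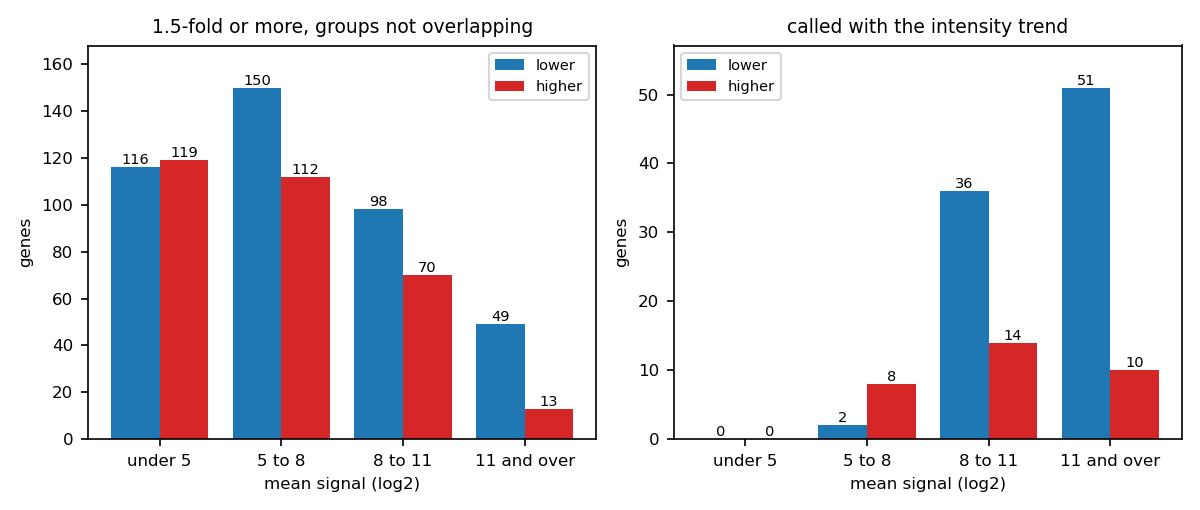
Number of genes (vertical) in 4 ranges of mean log2 signal (horizontal), lower in blue and higher in red, for genes at least 1.5-fold changed with groups not overlapping (left) and genes called with the intensity trend (right). Lower and higher counts are 116 and 119 in the dimmest range and 49 and 13 in the brightest.

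Of the genes called lower outside the list of published targets, the 15 with the largest changes are described first. TSPAN7 (gene ID 7102, GRCh38 X chromosome, 38561542 to 38688918) encodes a membrane protein of the tetraspanin family. Its log2 signal was 10.75 and 10.66 in control samples A and B and 8.99 and 9.12 with the mimic. The change was -1.65 with a standard error of 0.168, and the adjusted p was 7.34e-05 with the intensity trend. MANBAL (gene ID 63905), a small membrane protein gene on chromosome 20, measured 12.43 and 12.33 in control and 10.67 and 10.79 with the mimic. In both genes the groups lay far apart relative to the gap between A and B. SLC39A14, an importer of zinc, iron and manganese, was at 11.26 and 11.37 in control and 9.92 and 10.0 with the mimic, a 2.56-fold difference (adjusted p = 0.00023, intensity trend). DKK1, a secreted inhibitor of Wnt signalling, measured 9.85 and 10.23 against 8.84 and 8.59, 2.505-fold lower. The sodium bicarbonate cotransporter SLC4A4 was at 9.69 and 9.4 in control and 8.42 and 8.02 with the mimic. The remaining falls named by the rule were the glycoprotein hormone STC1, ARPP19, an inhibitor of the phosphatase PP2A in mitosis, ceruloplasmin (CP), the ubiquitin ligase WWP1, the adhesion receptor ADGRG1, the actin-binding twinfilin TWF1, the RNA polymerase III subunit POLR3G, the stress-induced chromatin protein NUPR1, the SWI/SNF subunit SMARCD1 and the neuropeptide Y receptor NPY1R. Their changes ran from -1.28 for STC1 to -1.115 for SMARCD1 and NPY1R.

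**Figure D3:**
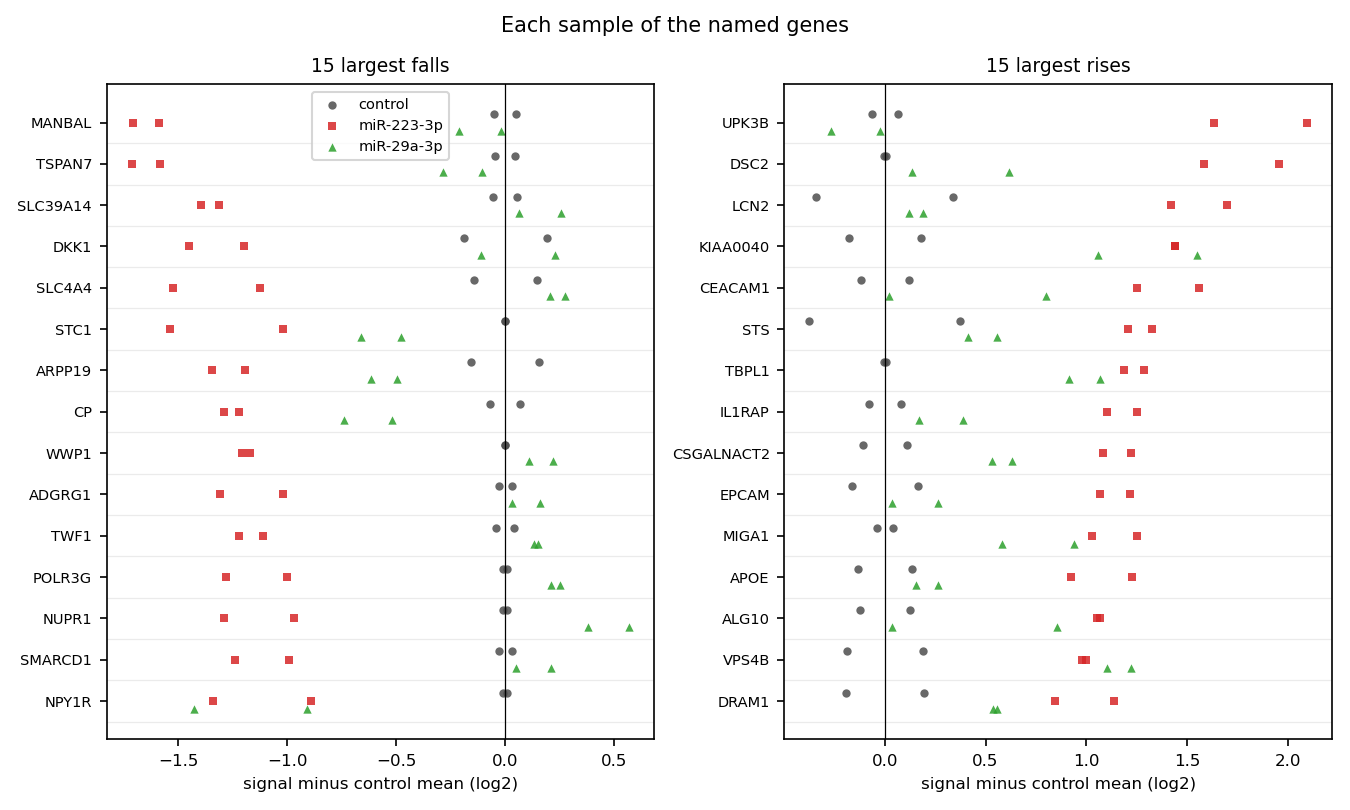
Log2 signal of each sample minus the control mean (horizontal) for the 15 largest called falls and 15 largest called rises outside the published targets (vertical); grey circles are control, red squares miR-223-3p and green triangles miR-29a-3p, 2 samples each. In every gene both red squares lie on one side of both grey circles, which the rule for naming these genes required. For NPY1R, KIAA0040 and VPS4B the green triangles lie with the red squares.

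Most of these falls were also lower than with the other mimic, a comparison in which 39 of all genes passed under the constant prior (0.221%) and 344 under the intensity trend (1.94%). Relative to miR-29a-3p, SLC39A14 differed by -1.515, WWP1 by -1.355, TWF1 by -1.305 and NUPR1 by -1.605, with adjusted p of 1.595e-05, 2.107e-05, 1.812e-05 and 5.563e-06 (intensity trend). With the constant prior these 4 genes passed that comparison too, at 0.0321 to 0.0326, as did MANBAL, TSPAN7, SLC4A4, ADGRG1, POLR3G and SMARCD1, at 0.0321 to 0.0468. These tests use the same miR-223-3p samples as the comparison with control. NPY1R was different, with a mean of 9.16 in control, 8.045 with miR-223-3p and 7.99 with miR-29a-3p, and an adjusted p of 0.974 between the mimics. For STC1 the difference between the mimics did not pass (-0.71, adjusted p = 0.24), and CP was intermediate with miR-29a-3p, at 10.63 against 10.01 with miR-223-3p (adjusted p = 0.0491). Of the 15 falls, 11 remained called without each of the 4 samples in turn. SLC4A4 lost its call without sample A of the control (0.0542). STC1 and POLR3G lost theirs without sample A of the control (0.204 and 0.0922), sample B of the control (0.168 and 0.0898) or sample A of the mimic (0.235 and 0.101). NPY1R lost its call without either control sample (0.204 and 0.181) or sample B of the mimic (0.33).

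The 15 largest called rises began with UPK3B and DSC2. UPK3B, of the uroplakins that plate the surface of urothelium and mesothelium, measured 5.76 and 5.63 in control and 7.79 and 7.33 with the mimic. It has closely related copies in the genome, so probe signal may be shared. DSC2 (gene ID 1824, chromosome 18, 31058840 to 31102421) was at 7.82 and 7.81 in control and 9.77 and 9.4 with the mimic, a change of 1.77 with a standard error of 0.2235 (adjusted p = 0.000528, intensity trend). EPCAM (gene ID 4072, chromosome 2, 47369311 to 47387020), an epithelial adhesion molecule, measured 10.49 and 10.16 against 11.39 and 11.54. The gap between its groups was wider than the spread within either. LCN2, a secreted protein that binds bacterial iron carriers, was at 5.53 and 6.21 in control and 7.57 and 7.29 with the mimic, with the control samples farther apart than the mimic samples. CEACAM1, a homophilic adhesion molecule, measured 6.29 and 6.05 against 7.42 and 7.73. IL1RAP, the accessory chain of the interleukin-1 receptor, measured 7.23 and 7.07 against 8.4 and 8.25, 2.26-fold higher. The other rises of the rule were KIAA0040, the steroid sulfatase STS, the TBP-related factor TBPL1, the chondroitin sulfate enzyme CSGALNACT2, the mitochondrial fusion factor MIGA1, apolipoprotein E (APOE), the glycosyltransferase ALG10 of the endoplasmic reticulum, the ESCRT ATPase VPS4B and the autophagy regulator DRAM1. Their changes ran from 1.44 for KIAA0040 to 0.99 for VPS4B and DRAM1.

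These rises were less evenly separated from the other mimic. UPK3B was 2.01 higher than with miR-29a-3p, with an adjusted p of 0.000281 with the intensity trend and 0.0303 with the constant prior. DSC2 (1.395), EPCAM (0.99) and LCN2 (1.405) also differed between the mimics, with adjusted p of 0.00133, 0.00204 and 0.00939 (intensity trend). KIAA0040 measured 5.21 in control, 6.65 with miR-223-3p and 6.515 with miR-29a-3p. For VPS4B these means were 8.78, 9.77 and 9.94, and for TBPL1 8.345, 9.58 and 9.335. For these 3 genes the adjusted p between the mimics was 0.925, 0.822 and 0.714. Nor did CEACAM1, STS, IL1RAP, CSGALNACT2, MIGA1, APOE, ALG10 or DRAM1 pass that comparison. Their adjusted p ran from 0.0522 for IL1RAP to 0.484 for MIGA1 (intensity trend). Of the 15 rises, 4 remained called without each of the 4 samples, namely UPK3B, DSC2, TBPL1 and EPCAM. Without sample A of the control 6 of the 15 were called and without sample B of the control 7, and without sample A or B of the mimic 5 and 6. STS and APOE were also not called when either sample of miR-29a-3p was left out, with adjusted p from 0.0513 to 0.0628.

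Functional groups were described with 48 lists of genes besides the published targets, holding 1321 measured genes, of which 26 were called lower and 12 higher. Together that is 2.88% of them, beside 0.684% of all genes. The lists were drawn up with earlier results on these samples known, so this share is no independent evidence about them. Lists are described by counts of called members and, for many, by the median change, beside the median of 0.0 over all genes. The shares to set beside these counts are those over all genes. They were 0.503% called lower, 0.181% called higher and 7.59% at an unadjusted p under 0.05 with the constant prior.

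**Figure D4:**
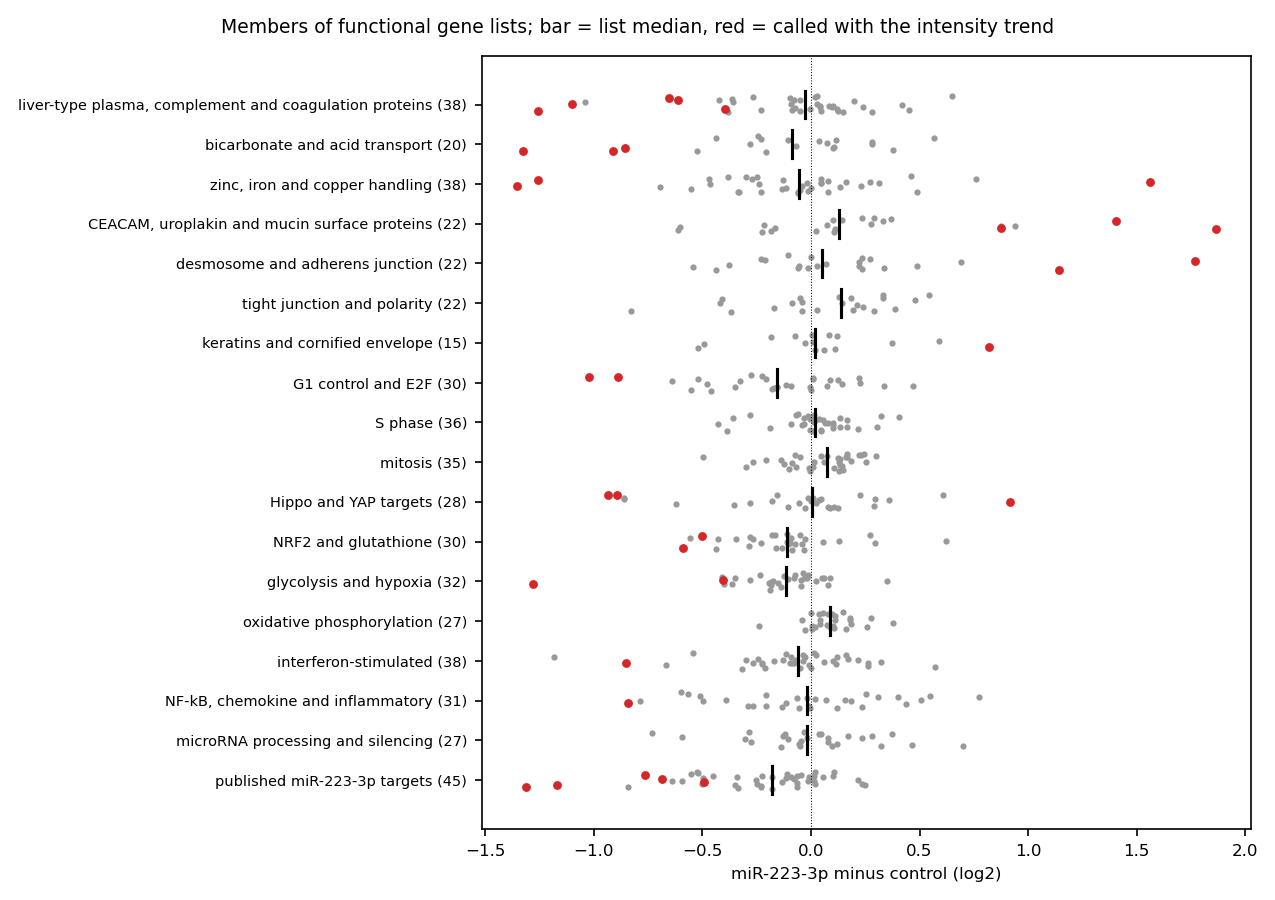
Log2 difference between miR-223-3p and control (horizontal) for the measured members of 18 gene lists (vertical, number of members in brackets); red points are called with the intensity trend, grey points are not, and black bars are list medians. The list medians lie between -0.18 and 0.138, while single members reach -1.355 and 1.865.

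Of 38 plasma proteins of liver type, 18 had signals under 5. The list had 5 called members, all lower, beside 0.503% called lower over all genes. They were ceruloplasmin, which carries copper and oxidises iron, complement factor I (CFI), complement C5 and the fibrinogen chains FGA and FGB. CP measured 11.33 and 11.19 in control and 10.04 and 9.97 with the mimic. CFI was at 9.94 and 9.58 against 8.7 and 8.62, and C5 at 13.03 and 13.16 against 12.31 and 12.57. FGB, among the brightest genes on the arrays, was at 16.07 and 16.05 in control and at 15.45 in both mimic samples, a change of -0.61 (adjusted p = 0.00203, intensity trend). FGA changed by -0.395. The third chain, FGG, given here because it completes the protein, differed by -0.265 and was not called. Albumin (ALB) differed by -1.04, but its control samples were 8.5 and 7.41 and it was not called (adjusted p = 0.25). The list median was -0.028, with 20 members below control and 18 above. APOE, an apolipoprotein outside this list, was called higher, by 1.075 (adjusted p = 0.0328, intensity trend). CFI was as low with miR-29a-3p (8.585, adjusted p between the mimics 0.944), while FGB was not (15.96, adjusted p = 0.00368). CP and FGB remained called without each of the 4 samples. CFI was not called without sample A of the control (0.214), sample A of the mimic (0.051) or sample B of the mimic (0.0902), and C5 not without sample A of the control (0.139), sample B of the control (0.274) or sample A of the mimic (0.284). The call of FGA was lost without any 1 of the 6 samples, with adjusted p from 0.077 to 0.369.

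Bicarbonate and acid transport had 3 called members of 20, all lower, beside 0.503% called lower over all genes. SLC4A4 and SLC4A7 bring bicarbonate into the cell with sodium, and carbonic anhydrase 2 (CA2) interconverts carbon dioxide and bicarbonate. SLC4A7 measured 9.44 and 9.2 in control and 8.44 and 8.49 with the mimic. CA2 was at 11.8 and 11.95 against 10.95 and 10.98, a change of -0.91. All 3 were lower than with miR-29a-3p as well, with adjusted p of 0.000146 for SLC4A4, 0.00497 for SLC4A7 and 0.000897 for CA2 (intensity trend). The list median was -0.088, and 10 of the 20 members had signals under 5, among them the chloride channel CFTR, which differed by -0.525 and was not called. SLC4A7 was not called when any 1 of the 6 samples was left out (0.0628 to 0.451), and CA2 not without sample B of the control (0.11) or sample A of the mimic (0.0526).

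Among 38 genes of zinc, iron and copper handling, SLC39A14 and CP were called lower and LCN2 higher. The zinc exporter SLC30A1 measured 9.21 and 9.06 in control and 9.77 and 10.02 with the mimic, and the iron exporter ferroportin (SLC40A1) 12.51 and 12.29 against 12.92 and 12.86. Neither was called, at adjusted p of 0.0776 and 0.128 with the intensity trend. The list median was -0.055. Metallothioneins, small proteins that bind zinc and copper, had 1 called member of 10, MT1E, which was lower by -0.675, while MT2A differed by 0.34 and MT1X by 0.235 the other way, neither called. Metallothionein genes are near-identical, and probes may not tell them apart. MT1E was not called without sample B of the control (0.359), sample A of the mimic (0.0675) or sample B of the mimic (0.122), and LCN2 not without sample A of the control (0.226) or sample A of the mimic (0.102).

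**Figure D5:**
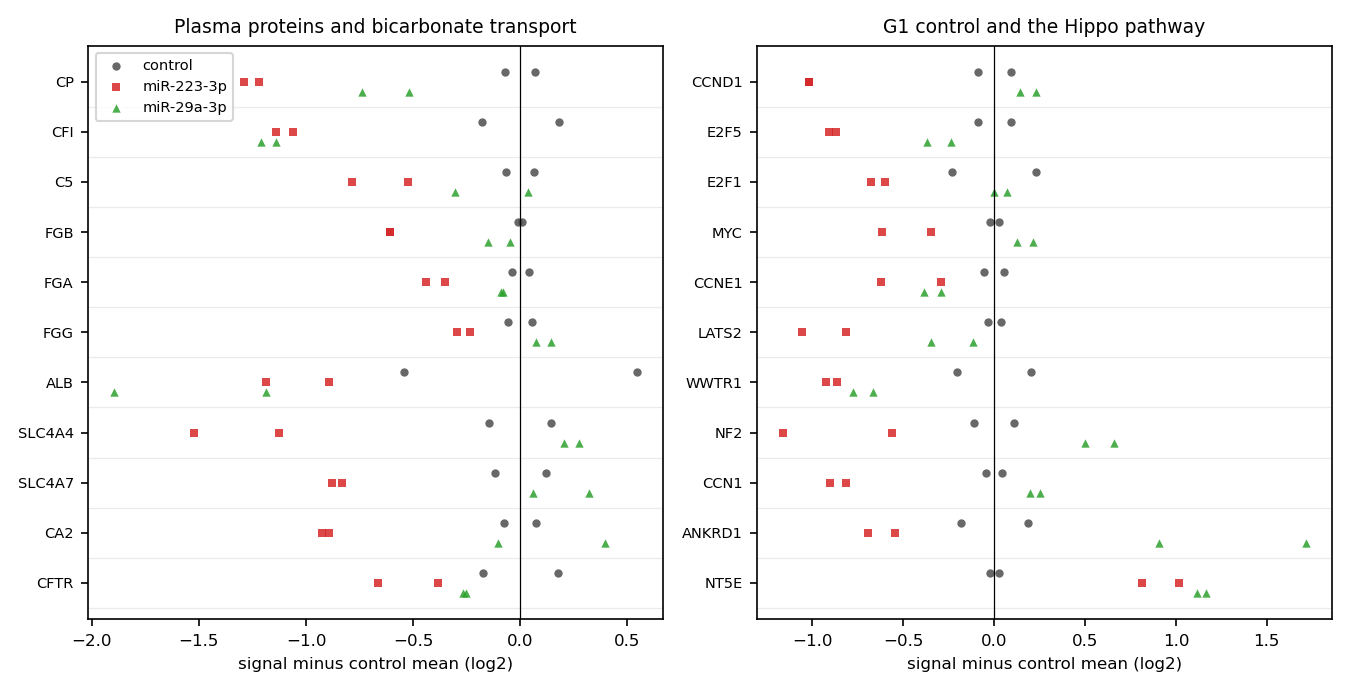
Log2 signal of each sample minus the control mean (horizontal) for plasma proteins and bicarbonate transport genes (left) and for genes of G1 control and the Hippo pathway (right); grey circles are control, red squares miR-223-3p and green triangles miR-29a-3p, 2 samples each. Both FGB squares lie at -0.61, and for CCND1 both lie at -1.02; for CFI and WWTR1 the miR-29a-3p samples are also below control.

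Called members of the epithelial surface and junction lists were higher, while members not called lay on both sides of control. Of 22 CEACAM, uroplakin and mucin genes, CEACAM1, UPK3B and the transmembrane mucin MUC13 were called higher, and 16 members lay above control. The list median was 0.128, and from 0.16 to 0.197 when 1 of the 4 samples was left out. MUC13 was at 9.72 and 9.44 in control and 10.4 and 10.51 with the mimic. Its mean with miR-29a-3p was 10.19 (adjusted p between the mimics 0.63, intensity trend). Mesothelin (MSLN), a surface glycoprotein, measured 6.4 and 6.31 against 7.15 and 7.31, and the uroplakin UPK1B 6.0 and 6.31 against 6.95 and 7.24. Their groups did not overlap, but neither was called (adjusted p = 0.186 and 0.174, intensity trend). UPK1B was about as high with miR-29a-3p, at 6.91, whereas MSLN was at 6.305. In the same list 6 members lay below control. Among them CEACAM20 and MUC5AC differed by -0.61 and -0.605 at signals under 5 and were not called. DSC2 and EPCAM were the called members among 22 desmosome and adherens junction genes, where 12 lay above control and 9 below. The median of that list was 0.05, or -0.007 without sample A of the mimic. Another desmosomal cadherin, DSG1, differed by -0.545 at dim signals, and the plaque protein desmoplakin (DSP) differed by 0.49. E-cadherin (CDH1) was 10.79 and 10.82 in control and 11.16 and 10.51 with the mimic, so its groups overlapped. KRT19, a keratin of simple epithelia, was called among 15 keratin and envelope genes, at 11.86 and 12.25 against 12.9 and 12.85. Its mean with miR-29a-3p was 12.57 (adjusted p between the mimics 0.409, intensity trend). In the keratin list 10 members lay above control and 5 below, and the median was 0.02, or -0.07 without sample A of the mimic. KRT16 and KRT80 differed by -0.49 and -0.52 and KRT23 by 0.59, none called. No tight junction gene of 22 was called and 2 had an unadjusted p under 0.05, with 13 above control and 9 below. The median was 0.138, or 0.082 without sample B of the control. The largest difference of that list was a lower signal of LLGL2, by -0.83. CEACAM1 was not called without any 1 of the 4 samples (0.0605 to 0.238). MUC13 was not called without sample B of the control (0.231) or either sample of the mimic (0.0738 and 0.187), and KRT19 not without sample A of the control (0.178) or of the mimic (0.0529).

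Of 30 genes that control G1, 2 were called, both lower, beside 0.503% called lower over all genes. CCND1, cyclin D1, which activates the G1 kinases, measured 9.98 and 10.16 in control and 9.05 in both mimic samples. Its change was -1.02 with a standard error of 0.173 (adjusted p = 0.0057, intensity trend), and it was lower than with miR-29a-3p (10.255, adjusted p = 0.000445). E2F5, a repressor of the E2F family, was at 11.21 and 11.03 against 10.25 and 10.21. E2F1, a published target of miR-223, E2F7, MYC and cyclin E1 (CCNE1) differed by -0.64, -0.55, -0.48 and -0.46 and were not called. The list had a median of -0.155, with 19 below control and 10 above, and the median was -0.06 without sample B of the control and -0.045 without sample B of the mimic. For 36 S phase genes the median was 0.018 and for 35 mitosis genes 0.075, with 0 called in either list, where 1 and 0 members had an unadjusted p under 0.05. ARPP19, which with its kinase MASTL holds PP2A inactive during mitosis, measured 10.92 and 11.23 in control and 9.88 and 9.73 with the mimic. It was the called member of 17 PP2A genes, and MASTL differed by -0.32. CCND1 was not called without sample B of the control (0.0988), and E2F5 not without sample A of the control (0.148) or sample B of the mimic (0.0717).

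The Hippo pathway restrains the growth-promoting coactivators YAP and TAZ. In the list of its genes and of YAP targets, WWTR1 and LATS2 were called lower and NT5E higher. WWTR1, which encodes TAZ, was at 9.67 and 10.08 in control and 9.01 and 8.95 with the mimic. The kinase LATS2, which phosphorylates TAZ and YAP, was at 9.26 and 9.33 against 8.24 and 8.48. With miR-29a-3p the means of WWTR1 and LATS2 were 9.155 and 9.065. Neither passed between the mimics (adjusted p = 0.822 and 0.0833, intensity trend). NT5E, an ectoenzyme that makes adenosine, was higher, at 11.21 and 11.16 against 12 and 12.2, and was also high with miR-29a-3p, at 12.325 (adjusted p between the mimics 0.597). Of the YAP-induced genes CCN1 measured 8.16 and 8.07 against 7.3 and 7.21, and ANKRD1 differed by -0.62. Neither was called, nor was the upstream regulator NF2, at -0.86. With miR-29a-3p these 3 genes lay above control, by 0.225, 1.31 and 0.58, of which ANKRD1 alone passed the test (adjusted p = 0.047, intensity trend). The list of 28 had a median of 0.005. In the Wnt list of 37, DKK1 was the called member. The receptors FZD4 and FZD7 differed by 0.66 and 0.8 and the feedback inhibitors AXIN2 and APCDD1 by -0.685 and -0.495, none called. In the ubiquitin ligase list of 38, 2 were called, WWP1 and the published target FBXO8, both lower. WWP1 was at 11.48 in both control samples and 10.31 and 10.27 with the mimic. Its relative NEDD4 lay higher by 0.785 (adjusted p = 0.255). NT5E, DKK1 and WWP1 remained called without each of the 4 samples. LATS2 was not called without any of them (0.0864 to 0.234), and WWTR1 not without any 1 of the 6 samples (0.052 to 0.434).

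The stress and metabolic lists had few called members. Of 30 NRF2 and glutathione genes 25 lay below control, with a median of -0.11 that was -0.207 when mimic sample A was left out and -0.072 when B was. The called members were the export pump ABCC2, at 14.63 and 14.43 in control and 13.95 and 13.93 with the mimic, and the epoxide hydrolase EPHX1, at 15.27 and 15.24 against 14.81 and 14.7. Heme oxygenase (HMOX1) differed by 0.62 and was not called, with sample A of the mimic at 8.19 and sample B at 7.39. Of 32 glycolysis and hypoxia genes 26 lay below control, with a median of -0.115 that was -0.047 without sample B of the mimic. LDHA, which makes lactate, was called lower along with STC1. LDHA was at 16.4 and 16.41 against 16.09 and 15.91. The oxygen-sensing factors HIF1A and EPAS1 differed by -0.4 and -0.41 and were not called. By contrast 23 of 27 genes of oxidative phosphorylation lay above control, with a median of 0.09 that was 0.035 without sample A of the control, but none was called with either prior and none had an unadjusted p under 0.05. DDIT4, an inhibitor of mTOR signalling, was the called member of 28 stress response genes, at 11.86 and 12.2 against 11.24 and 11.38. It lay higher with miR-29a-3p, at 12.62 (adjusted p between the mimics 5.833e-05). NNMT, which methylates nicotinamide, was called lower among 27 drug-metabolising enzymes, by -1.005. Of 24 cholesterol genes 16 lay above control, with a median of 0.128 that was 0.075 without sample A of the control, although MSMO1, a published target, was called lower. LDHA and NNMT were not called without any 1 of the 6 samples, with adjusted p from 0.051 to 0.457 and from 0.0551 to 0.377. ABCC2 was not called without sample A of the control (0.319) or either sample of the mimic (0.0805 and 0.115), and EPHX1 not without any 1 of the 4 samples (0.0558 to 0.226). DDIT4 was not called without sample B of the control (0.391) or either sample of the mimic (0.204 and 0.0951).

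Inflammatory and immune genes did not move together. CCL2, which attracts monocytes, was the called member of 31 NF-kB and chemokine genes, at 10.56 and 10.09 in control and 9.66 and 9.31 with the mimic. ICAM1 differed by -0.6 and the prostaglandin synthase PTGS2 by -0.785, while the neutrophil chemokine CXCL8 differed by 0.775, none called. In the interferon list of 38, IFIH1, a sensor of double-stranded RNA, was called lower, at 11.1 and 10.81 against 10.17 and 10.04. It was about as low with miR-29a-3p, at 10.235. IFI44L had the lowest value of the list at -1.185, but its control samples were 6.98 and 5.76 and it was not called (adjusted p = 0.162). USP18 and OAS1 differed by -0.665 and -0.545 and were not called, and the list median was -0.06. Among 23 interleukin-1 and interleukin-6 receptor genes IL1RAP was called higher, whereas the shared receptor IL6ST and the transducer STAT3, both published targets, differed by -0.52 and -0.525, neither called. In the list of antigen presentation and checkpoint ligands, MICB, a ligand of the NKG2D receptor of killer cells, was called higher with NT5E. MICB was at 9.64 and 10.05 against 10.74 and 10.66, and was higher than with miR-29a-3p (9.82, adjusted p = 0.00896). CCL2 was called without sample B of the control (0.0352) and not without any other of the 6 samples (0.0524 to 0.561). IFIH1 was not called without sample A of the control (0.339), sample A of the mimic (0.0709) or sample B of the mimic (0.203), nor MICB (0.411, 0.173 and 0.128 in that order). IL1RAP was not called without any 1 of the 4 samples (0.0951 to 0.174).

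The published miR-223-3p targets serve as a point of reference. Of 45 measured, 5 were called lower and 0 higher, and 35 lay below control. They were PARP1, FBXO8, NFIA, MSMO1 and SEPTIN2, a cytoskeletal septin at 14.02 and 13.91 in control and 13.42 and 13.53 with the mimic. The list median was -0.18. Over all 17687 genes, 89 (0.503%) were called lower and 49.3% lay below control. The share called lower was larger among the targets, while most of the 89 genes were not on that list. The 2 shares differ in base: 8 of the 45 targets and 6501 of the 17687 genes had signals under 5, where 0 were called. This list was also drawn up with earlier results known, so its share is no independent evidence. Of 40 PARP and DNA repair genes PARP1 was the called member, and 20 lay on each side of control. The machinery that processes microRNAs and carries out silencing had 0 called members of 27, with 3 at an unadjusted p under 0.05. AGO2, the Argonaute that can cleave its targets, measured 10.63 and 10.67 against 9.99 and 10.12, a change of -0.595 that was not called (adjusted p = 0.135, intensity trend). SEPTIN2 was not called without any 1 of the 6 samples (0.0832 to 0.451). PARP1 remained called without each of them, and FBXO8 and NFIA were called without sample B of the mimic only among the 4 (0.0438 and 0.0466). MSMO1 lost its call without sample A of the control (0.0542).

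The other lists had few or no called members. Over all genes 7.59% had an unadjusted p under 0.05 with the constant prior. Lists with 0 called, given with their members, median change and number at an unadjusted p under 0.05 in that order, included mesenchymal and TGF-beta response genes (24, -0.025, 2), integrins, laminins and collagens (30, 0.035, 4), glucose and amino acid transporters (31, -0.005, 4), EGFR, RAS and MAPK genes (34, 0.048, 1), BCL2 family and caspases (28, 0.023, 4) and p53 targets (23, 0.025, 2). In the insulin and IGF list of 31 the binding proteins IGFBP1 and IGFBP4 differed by -1.195 and -0.52, with adjusted p of 0.0844 and 0.0743 with the intensity trend. Replication-dependent histones had 29 of 44 below control with a median of -0.128 that turned to 0.072 without sample B of the control, and control samples A and B themselves differed, with list means of -0.166 and 0.166 about the control mean. Lung lineage markers lay above control in 13 of 18 with a median of 0.18 that was 0.05 without sample B of the control and 0.07 without sample A of the mimic, mostly at signals under 5.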

How the data were processed

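NCI-H2023 cells were profiled on 6 arrays, of which 4 are compared here. The deposited values are log2 signals per probe set, normalized by the authors with RMA against hg38 annotation, per the submitters' processing notes; versions are not given in the sources used here. RMA gives arrays a like distribution, so a change in total RNA cannot be seen. Of 21448 probe sets, 17709 name 1 gene, all matched to RefSeq by gene ID, and 3739 are unnamed here. For 22 second probe sets of a gene the brighter one was kept, leaving 17687 genes.

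All 6 samples entered 1 limma fit (limma 3.58.1, R 4.3.3; 3 residual degrees of freedom), with a constant prior as the main setting and an intensity trend beside it. P-values were adjusted by Benjamini-Hochberg over all genes at 0.05. The rule for named genes took the 15 largest called falls and rises outside the published targets, the called members of each list, and the next 4 members. The falls and rises were taken only where both mimic samples lay on one side of both control samples. Some further members are named with their values after these were seen. The intensity trend, the members and the lists were chosen with earlier results of these data known. The fit was tested on simulated data.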

Additional observations from a re-analysis of the deposited data

How the results depend on the processing

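The number of genes past the test depended on the prior. With the constant prior it went from 0 to 121 with the intensity trend, to 3 (2 lower, 1 higher) over genes with a mean log2 signal of 5 or more, and to 684 (386 lower, 298 higher) at an unadjusted p under 0.05 and at least 1.5-fold. With the intensity trend it went from 121 to 0 with the constant prior and to 705 (399 lower, 306 higher) under the unadjusted rule, and from 42 to 99 when 1 sample was left out. It was 116 with a robust prior, 102 with only the 4 samples compared, 118 after a second quantile normalization and 141 without dim genes. The letters A and B did not pair the samples; with the replicate block the counts were 0 and 145. The counts at 1.5-fold with groups not overlapping, 413 lower and 314 higher, went to 39 and 20 at 2-fold, and the higher count to 195 without dim genes. Of 4403 alternatives for single genes, 3997 kept direction and side of the threshold, 384 lost the call, 19 gained it and 3 turned direction: without sample B and sample A of the control, MT1F ranged from -0.15 to 0.38, RPS14 from 0.11 to -0.41 and MT4 from 0.31 to -0.01 (the intensity trend; none called). The 4403 alternatives include genes that were not called, and the named genes under the constant prior. These had no call to lose, so the share that was kept does not measure how stable the calls were. List medians changed sign in 40 of 490 alternatives, in 27 lists. The cause was not tested.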

Other observations

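Of the 121 genes called with the intensity trend, 78 were on no list. Those named here were chosen after their values were seen. Called genes of the hexosamine pathway, which makes the sugar donor for glycosylation, lay on opposite sides. GFPT1, its first and rate-limiting enzyme, measured 13.39 and 13.28 in control and 12.21 and 12.36 with the mimic (adjusted p = 0.00023), while GNPNAT1, which acetylates glucosamine phosphate, measured 11.84 and 11.56 against 12.72 and 12.62 (0.00123). GFPT1 was lower than with miR-29a-3p, where its mean was 13.83 (1.013e-06), and GNPNAT1 was about as high there, at 12.68 (0.993). Both remained called without each of the 4 samples. HPD, a dioxygenase of tyrosine breakdown, was lower by -1.105, from 14.33 and 14.27 to 13.36 and 13.03. SLC19A1, the reduced folate carrier, measured 11.63 and 11.58 against 10.71 and 10.57. These 2 genes also remained called without each of the 4 samples.

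Among signalling genes TNFRSF12A, the receptor for the cytokine TWEAK, measured 11.92 and 12.1 in control and 11.24 and 11.13 with the mimic, and was lower than with miR-29a-3p (12.48, adjusted p = 2.006e-05). It was not called without sample B of the control (0.0984) or sample B of the mimic (0.0622). PI3, the secreted elastase inhibitor elafin, measured 13.72 and 13.6 against 14.41 and 14.25, and was also higher than with miR-29a-3p (13.15, 2.107e-05). It was called only without sample B of the mimic among the 4 (0.0438). The mitochondrial creatine kinase genes CKMT1A and CKMT1B differed by 0.55 and 0.635. They are near-identical copies, so their probes may measure the same transcripts.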
